A study of Mus musculus with 6 samples.

Results

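The transcripts of 9 genes whose proteins are measured in blood or cerebrospinal fluid as markers of brain injury, or that belong to the same axonal structures, were followed in the mouse hippocampus after traumatic brain injury. The genes were taken from a list by name, namely Nefl, Nefm, Nefh, Mapt, App, Sptan1, Uchl1, Eno2 and S100b, and all 9 were found among the 52550 genes of the count files. The mice were male, of the C57BL / 6 breed by the labels and C57B6/J by the methods, and aged 8 to 10 weeks. In the TBI group a controlled cortical impact of moderate severity was delivered through a craniotomy over the right parietal bone, with a velocity of 1.5 m/s, a depth of 1.5 mm and a dwell time of 100 ms. The sham group had the same anaesthesia and craniotomy without the impact, so surgery itself was shared by both groups. Hippocampal RNA was taken 24 h later and sequenced as 1 library per mouse, 3 of sham mice (Sham1, Sham2, Sham3) and 3 of TBI mice (TBI1, TBI2, TBI3). The dissected hippocampus included tissue away from the impact, and the share from the injured side is not given in the sources used here. All 9 genes passed the filter on low counts and were among the 18795 genes tested.

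Neurofilaments are the intermediate filaments of axons and are built from light, medium and heavy subunits (Nefl, Nefm and Nefh), while tau (Mapt) binds axonal microtubules and alpha-II spectrin (Sptan1) forms the lattice under the axonal membrane. When axons are stretched or neurons die, these proteins, together with the neuronal enzymes UCH-L1 (Uchl1) and neuron-specific enolase (Eno2) and the glial protein S100B, leak into the extracellular fluid, and calpains and caspases cut spectrin and tau into fragments that can be measured. The amyloid precursor protein (App) is carried along axons and accumulates where transport is interrupted. A marker in fluid therefore reports release of protein, and a transcript level in tissue reports a different quantity.

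The libraries held 31630936 to 41771872 estimated counts, and 0.460% to 0.555% of them belonged to the 9 genes. Levels are given as CPM, counts scaled to a common library size with the TMM factors of edgeR. Several libraries stood apart before any comparison. In TBI1, 7 markers of striatal neurons summed to 4720 CPM, against 150 to 222 CPM in the other 5 libraries, and 6 markers of dentate granule cells summed to 285 CPM, against 334 to 694 CPM. Their mean log2 level, the dentate markers, was -2.39 from the sham mean in TBI1 and between -0.73 and 0.63 from it elsewhere. In the library labelled Sham2, Gfap, the intermediate filament of reactive astrocytes, stood at 4055 CPM, above the 541 to 1478 CPM of the 5 other libraries. Atf3 and Gal, genes that injured neurons are known to switch on, were chosen after their values were seen. The Sham2 level of Atf3 was 17.9 CPM against 0.593 to 4.53 CPM elsewhere, and that of Gal was 23.7 CPM against 0.313 to 1.86 CPM elsewhere. The mean log2 level of the 16 tested genes of an axon injury and degeneration list, which holds Atf3 and Gal, was 0.79 above the sham mean in Sham2, and between -0.47 and 0.071 from it in the others. Markers of microglia and macrophages were at 0.092, 0.090 and -0.18 in Sham1 to Sham3 on that scale, and summed to 437, 488 and 381 CPM. Sham2 also had the lowest sum of 10 oligodendrocyte markers, 3103 CPM against 9095 to 11159 CPM elsewhere. Choroid plexus markers, led by Ttr, summed to 1996 to 2310 CPM in Sham1, Sham3 and TBI2 and to 51.3 to 249 CPM in Sham2, TBI1 and TBI3. Markers of thalamic neurons summed highest in TBI3, at 615 CPM against 128 to 438 CPM elsewhere. The markers of CA1 and CA3 pyramidal cells were all detected, with sums of 700 to 790 CPM in sham and 412 to 643 CPM in TBI. In bulk tissue, fewer cells of a type and less RNA per cell cannot be told apart, and the part of tissue composition in the differences described here was not tested.

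The study set its thresholds at an unadjusted p of 0.05, an adjusted p of 0.1 and a change of 1.5-fold in either direction. At these, 0 of the 9 genes were differentially expressed by edgeR's quasi-likelihood test, where 0% of all 18795 genes tested were. DESeq2 with its defaults also called 0 of the 9, against 0.164% of the 28118 genes it tested. At an unadjusted p under 0.05 edgeR placed 0 of the 9, where 4.29% of all genes fell (2.16% higher and 2.13% lower in TBI). DESeq2 placed 1, S100b, where 4.11% of its genes fell. Sham and TBI libraries failed to overlap in 1 of the 9 genes, Uchl1, where 10.2% of all genes did not overlap (4.77% higher and 5.45% lower in TBI). Of the 9 genes, 6 had a log2 fold change above 0 and 3 below 0, where 51.4% and 48.6% of all genes did. For a single gene, 3 mice against 3 allow no p below 0.1 in an exact permutation test.

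**Figure D1:**
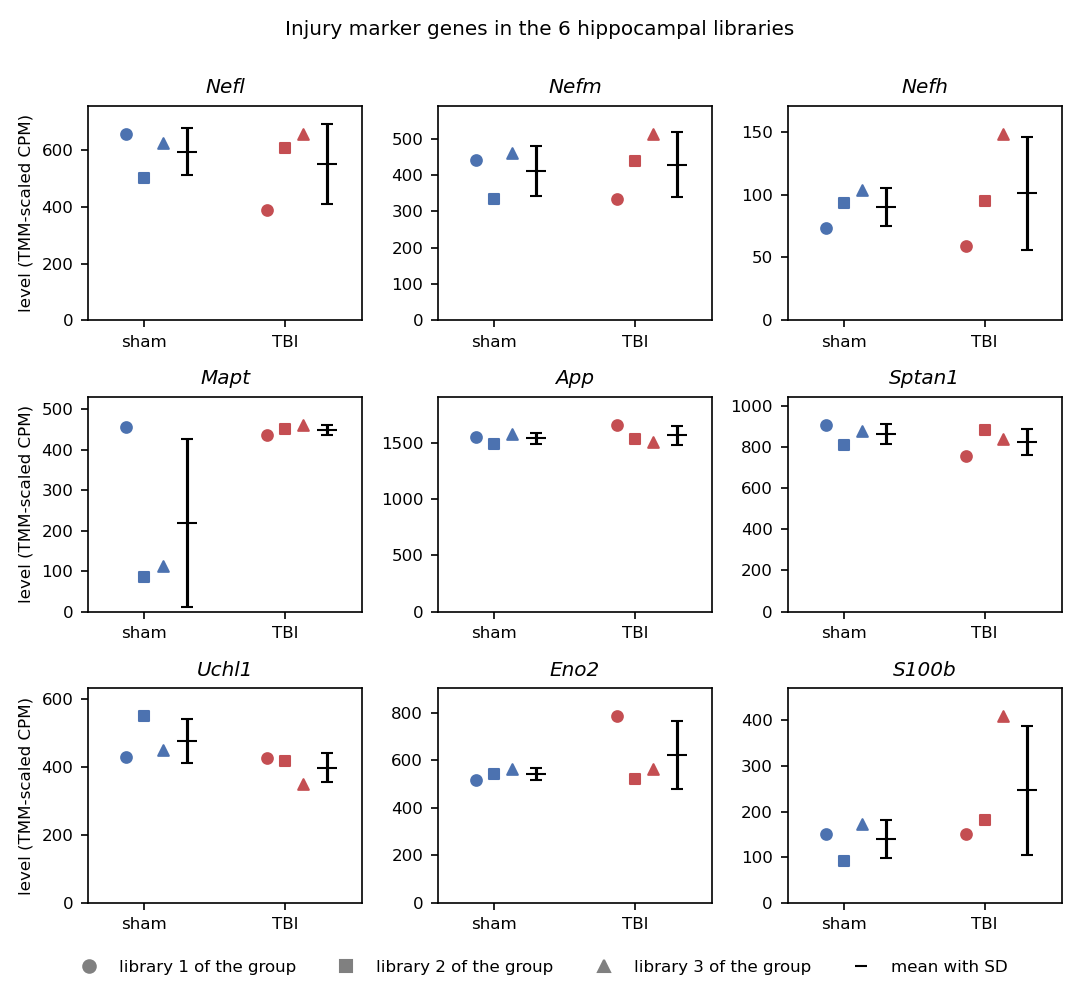
Level of each injury marker gene in the 6 hippocampal libraries, in TMM-scaled CPM on axes that start at 0, with the mean and SD of each group (n = 3 mice) to the right of its points. The groups overlap in every panel except that of Uchl1. Sham2 and Sham3 stand apart in Mapt, and single libraries stand apart in Eno2 (TBI1) and S100b (TBI3).

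The neurofilament genes differ in the repeats that their coding sequences hold, and these are shown because repeated bases bear on how reads can be assigned. Nefl and Nefm overlap on opposite strands of chromosome 14 of GRCm38, Nefl on the plus strand from 68083863 to 68089095 and Nefm on the minus strand from 68082590 to 68124846, and Nefh lies on the minus strand of chromosome 11 from 4938754 to 4948064. The tails of the medium and heavy subunits carry lysine-serine-proline repeats, whose serines are phosphorylated in axons. Runs of codons for lysine, serine and proline in frame were counted in the GENCODE vM21 coding sequences. There were 0 in the 543 codons of Nefl, 4 in the 848 codons of Nefm and 51 in the 1090 codons of Nefh. The stretch of 90 coding bases with the most runs is printed for Nefm (coding bases 1432 to 1521) and Nefh (coding bases 1555 to 1644), with the runs in capitals.
Nefm: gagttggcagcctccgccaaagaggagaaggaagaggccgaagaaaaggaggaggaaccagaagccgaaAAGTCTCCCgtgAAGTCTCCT
Nefh: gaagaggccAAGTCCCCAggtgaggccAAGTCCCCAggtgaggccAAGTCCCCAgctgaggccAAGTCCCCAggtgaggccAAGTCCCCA
The Nefm stretch holds 2 runs and the Nefh stretch holds 5, separated by near-identical codons. The annotated exons of Nefl and Nefm also overlap on opposite strands by 1108 bases, which is 32.8% of the exonic bases of Nefl and 19.2% of those of Nefm. Since the strandedness of the libraries is not given in the sources used here, reads on the shared bases could count for either gene.

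Transcripts of the neurofilament subunits were at similar levels in both groups, and their spread was wider in TBI than in sham. Nefl stood at 657, 502 and 625 CPM in the sham libraries and at 389, 607 and 658 CPM in the TBI libraries. TBI1 was the lowest of all libraries, and TBI3 and Sham1 were level with each other. Sham averaged 595 ± 82.2 CPM and TBI 551 ± 142 CPM (SD, 3 mice each). On the log2 scale TBI differed from sham by -0.11 (SE, the standard error, 0.219, 95% interval -0.63 to 0.41, edgeR adjusted p 0.984). Without TBI1 it was 0.088, and without both Sham2 and TBI1 it was -0.021.

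Nefm, the medium subunit, stood at 442, 333 and 461 CPM in sham and at 334, 438 and 514 CPM in TBI. The low libraries were Sham2 and TBI1, and TBI3 was the highest. For Nefm the log2 fold change was 0.057 (SE 0.200, 95% interval -0.42 to 0.54, edgeR adjusted p 0.990). It was -0.076 without Sham2, -0.10 without TBI3 and 0.21 without TBI1.

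Nefh, the heavy subunit, had 73.8, 93.3 and 103 CPM in sham and 59.2, 95.1 and 148 CPM in TBI. Its lowest and its highest library were both TBI libraries, TBI1 and TBI3, so the TBI range enclosed the sham range. The ratio of the highest to the lowest TBI library was met or passed by 5.35% of the 2429 genes at least as abundant as Nefh. Its log2 fold change was 0.16 (SE 0.327, 95% interval -0.62 to 0.94, edgeR adjusted p 0.984), and it moved to -0.23 without TBI3 and to 0.43 without TBI1. TBI3 ranked first for all 3 subunits and for the thalamic sum (615 CPM), and TBI1 ranked last for Nefl, Nefh and the thalamic sum (128 CPM). Parvalbumin interneuron markers, which mark another neuron type rich in neurofilament, summed to 1028 CPM in TBI3 against 266 to 499 CPM elsewhere. The second highest sum was that of TBI1, where Nefl and Nefh were lowest and striatal markers summed to 4720 CPM. Which cells gave the parvalbumin list its sum in TBI1 was not tested. The part of the thalamic and parvalbumin markers in the neurofilament levels was not tested either.

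The ratio of Nefm to Nefl was more even than their levels. Per kb of exon, Nefm stood at 0.393, 0.388 and 0.431 times Nefl in the sham libraries and at 0.501, 0.422 and 0.457 times in the TBI libraries. The mean ratio was 0.404 ± 0.0233 in sham and 0.460 ± 0.0395 in TBI (SD, n = 3 each), with Sham3 inside the TBI range. Nefh stood at 0.131 ± 0.0323 times Nefl in sham and 0.151 ± 0.0348 times Nefl in TBI (SD, n = 3 each), and those ranges overlapped.

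Mapt, which encodes tau, had the widest spread of the 9 genes, and the spread lay within the sham group. The gene lies on the plus strand of chromosome 11, between 104231390 and 104332090, with 12 transcripts in the annotation. Sham1, Sham2 and Sham3 held 18506, 3467 and 4335 Mapt counts, and the TBI libraries held 17766, 14244 and 16405. In CPM it stood at 457, 86.4 and 113 in sham and at 435, 450 and 461 in TBI. The TBI libraries lay within 1.06 times of each other, and Sham1 lay inside their range. Sham2 and Sham3 lay far below all 4. The highest sham library was 5.29 times the lowest, a ratio reached by 8 of the 2429 genes at least as abundant as Nefh, Mapt included (0.329%), where the median ratio was 1.23. TBI stood above sham by a log2 fold change of 1.04 (SE 0.610, 95% interval -0.42 to 2.49, edgeR adjusted p 0.982). Which sham libraries were kept decided its size. Without Sham1 the log2 fold change was 2.18, with an unadjusted p of 2.44e-05 and an adjusted p of 0.473 from the same test, while it was 0.65 without Sham2 and 0.71 without Sham3. DESeq2 without Sham1 called Mapt, with a log2 fold change of 2.17 and an adjusted p of 2.93e-20, and DESeq2 with all 6 libraries gave an adjusted p of 0.946. The 3 annotated genes inside Mapt shared 0 exonic bases with it and had at most 3 counts in any library. Relative to the sham mean, Mapt was 1.47, -0.93 and -0.54 on the log2 scale in Sham1 to Sham3, while the mean of 10 neuron markers lay between -0.0033 and 0.0040 there and between -0.11 and -0.098 in TBI. These markers summed to 10521, 8747 and 9073 CPM in Sham1 to Sham3 and to 7545 to 8555 CPM in TBI. The part of neuron content in the Mapt level was not tested. Oligodendrocyte markers stood at -1.14 in Sham2 and at 0.40 in Sham3, and their part in the Mapt level was not tested either.

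App and Sptan1 were the most even of the 9 genes over the 6 libraries. App lies on the minus strand of chromosome 16 from 84949685 to 85173766. It had the most counts of the 9 genes and stood at 1552, 1486 and 1580 CPM in sham and at 1657, 1531 and 1506 CPM in TBI. TBI1 was the highest library and Sham2 the lowest, so the groups overlapped, and of the other 4 the sham libraries lay above the TBI libraries. App had a log2 fold change of 0.024 (SE 0.0985, 95% interval -0.21 to 0.26, edgeR adjusted p 0.992), and only 0.606% of all genes had a smaller SE. A change past the fold thresholds of the study lay outside that interval. Leaving out TBI1 gave -0.020 and leaving out Sham2 gave -0.0017.

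Sptan1, on the plus strand of chromosome 2 from 29965560 to 30031451, stood at 906, 809 and 876 CPM in sham and at 757, 880 and 836 CPM in TBI. TBI1 was the lowest and Sham1 the highest. Sptan1 had a log2 fold change of -0.067 (SE 0.109, 95% interval -0.33 to 0.19, edgeR adjusted p 0.983), again inside the fold thresholds. Under every alternative run it stayed below 0, between -0.12 and -0.010.

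**Figure D2:**
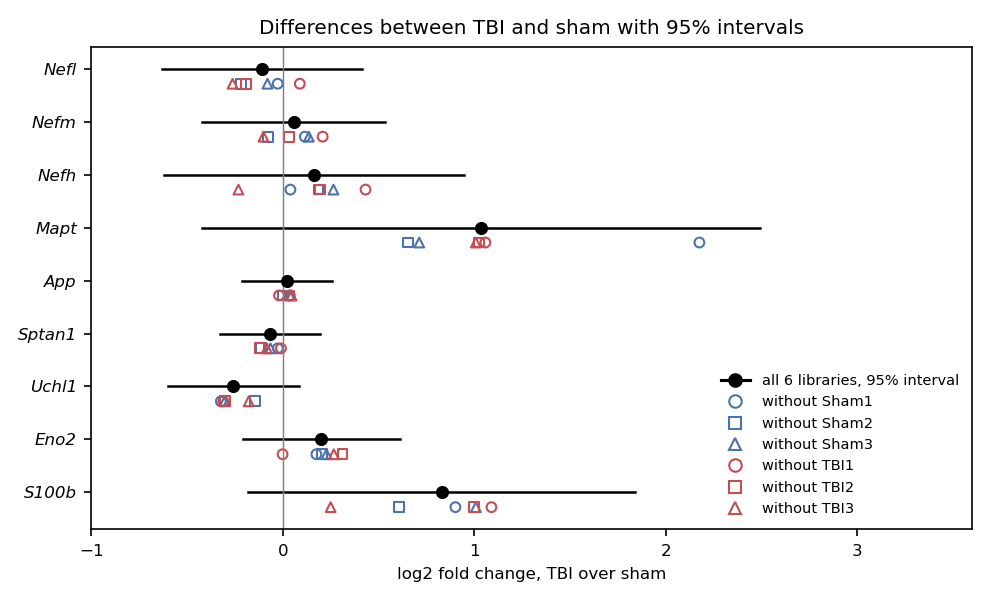
Log2 fold change of each injury marker gene, TBI over sham, from edgeR's quasi-likelihood fit. Filled points and lines show all 6 libraries with the 95% interval, and open symbols below show the value with 1 library left out; every interval includes 0, those of Mapt (-0.42 to 2.49) and S100b (-0.18 to 1.84) are the widest, and that of App (-0.21 to 0.26) is the narrowest.

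Uchl1, a deubiquitinating enzyme that makes up a large share of soluble neuronal protein, was the gene whose groups did not overlap. It lies on the plus strand of chromosome 5 from 66676091 to 66687234. Sham libraries had 429, 550 and 451 CPM and TBI libraries had 426, 419 and 349 CPM. The gap was narrow, since the lowest sham library (Sham1) and the highest TBI library (TBI1) differed by less than the spread within either group, and with library totals in place of TMM the groups overlapped. Sham averaged 477 ± 64.4 CPM against 398 ± 42.5 CPM for TBI (SD, 3 mice each). Its log2 fold change was -0.26 (SE 0.143, 95% interval -0.60 to 0.082, edgeR adjusted p 0.982). It was -0.15 without Sham2, the highest library, and -0.20 without both Sham2 and TBI1. The antisense gene Uchl1os shares 295 exonic bases with Uchl1 (18.1%) but had at most 20 counts in any library, against 12424 to 22071 for Uchl1.

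Eno2, the neuronal enolase of glycolysis, lies on the minus strand of chromosome 6 from 124760053 to 124769673. Its level was 516, 544 and 565 CPM in sham and 785, 520 and 562 CPM in TBI. TBI1 stood apart from the other 5 libraries, which spanned 516 to 565 CPM across both groups. For Eno2 the log2 fold change was 0.20 (SE 0.172, 95% interval -0.21 to 0.61, edgeR adjusted p 0.982). Leaving out TBI1 brought it to -0.0015. The same library held the 4720 CPM of striatal markers, and the part of that tissue in the Eno2 level was not tested.

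S100b, the calcium-binding protein of astrocytes and of mature oligodendrocytes, had the smallest p of the 9 genes. It lies on the plus strand of chromosome 10 from 76253853 to 76261159. The sham libraries had 152, 92.4 and 173 CPM and the TBI libraries had 150, 182 and 409 CPM. TBI3 was far above the rest, TBI2 was a little above the highest sham library, and TBI1 lay inside the sham range. Group means were 139 ± 41.7 CPM for sham and 247 ± 141 CPM for TBI (SD, 3 mice each). This gave a log2 fold change of 0.83 (SE 0.423, 95% interval -0.18 to 1.84, unadjusted p 0.0925 and adjusted p 0.982 in edgeR). DESeq2 gave 0.82, with an unadjusted p of 0.0447 and an adjusted p of 0.899. Without TBI3 the log2 fold change was 0.25, while without TBI1 it was 1.09 (unadjusted p 0.0375, adjusted p 0.906 from the edgeR test) and without Sham2 it was 0.61. Markers of astrocytes and oligodendrocytes are given beside S100b, and their part in its level was not tested. Relative to the sham mean, the mean log2 level of 8 astrocyte markers was 0.16 in TBI3 and 0.24 in TBI2. That of 10 oligodendrocyte markers was 0.59 in TBI3, 0.64 in TBI1 and 0.73 in Sham1, where S100b was 1.61, 0.16 and 0.18. In Sham2 S100b (-0.54) and the oligodendrocyte markers (-1.14) were both at their lowest. Thalamic and parvalbumin interneuron markers were at their highest in TBI3, at 1.33 and 0.90 on the same scale. In TBI1, which also held the striatal markers, the parvalbumin list was at 0.76 and S100b at 0.16. The thalamic list was at 1.02 in TBI2 and 0.96 in Sham3, where S100b was 0.44 and 0.36. The part of the thalamic and parvalbumin lists in the S100b level was not tested.

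**Figure D3:**
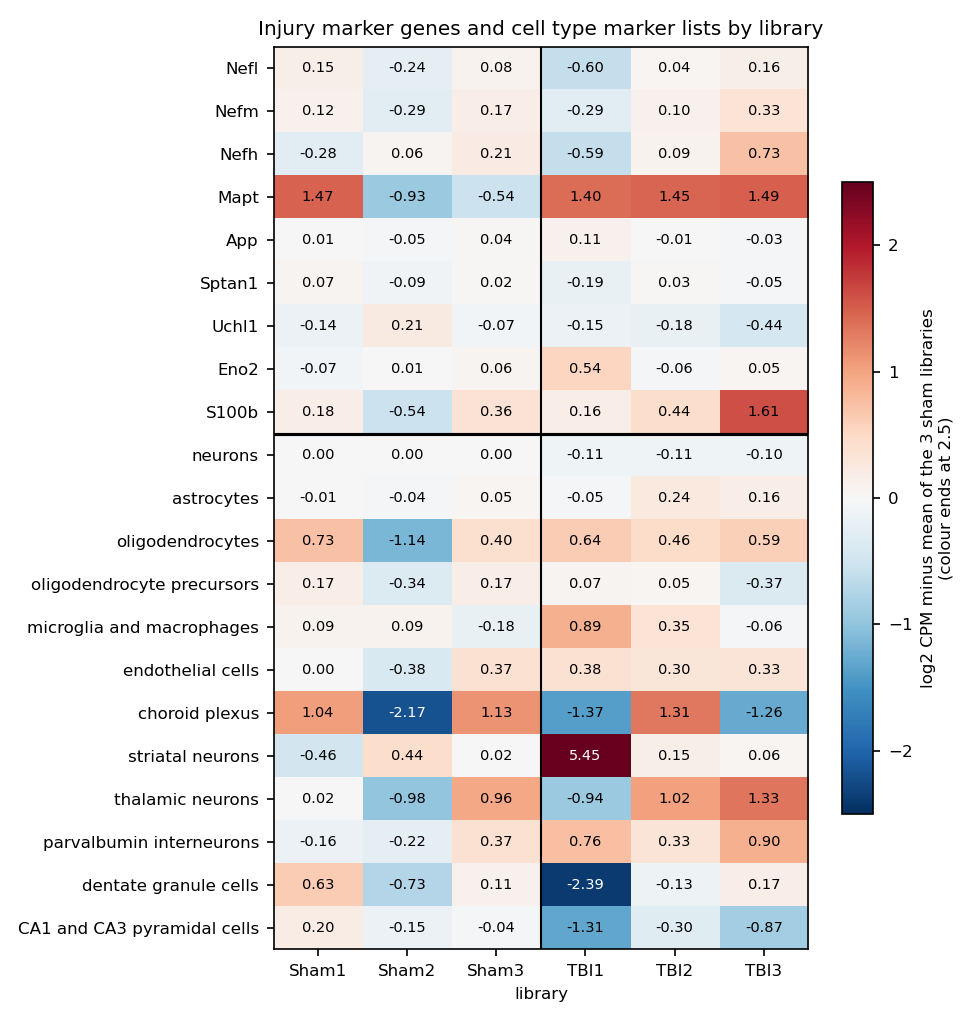
Difference in log2 CPM from the sham mean for each injury marker gene (above the line) and for the mean of each cell type marker list (below the line), in the 6 libraries; the colour scale ends at 2.5 and each cell carries its value. Mapt is low in Sham2 (-0.93) and Sham3 (-0.54) alone, S100b is highest in TBI3 (1.61), Eno2 in TBI1 (0.54), and the striatal list stands at 5.45 in TBI1.

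Levels of different genes were compared per kb of exonic length, as CPM per kb. Uchl1 had the highest mean, with a range over the 6 libraries of 214 to 337 and a median of 262. It was above Nefl in every library, and their ranges did not overlap, since Nefl spanned 115 to 195. In TBI3, however, S100b stood above both, and in TBI1 Eno2 and App stood above Nefl. S100b (62.3 to 276), Eno2 (110 to 167) and App (114 to 128) followed by their means with overlapping ranges, and their order was not the same in all libraries. App was above Nefm (57.6 to 88.8) in 6 of 6 libraries. Nefm and Sptan1 (56.7 to 67.8) overlapped, as did Sptan1 and Mapt (11.5 to 61.2). Nefh had the lowest mean, with 14.8 to 37.1, and lay above Mapt in Sham2 and Sham3 and below it in the other 4 libraries.

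**Figure D4:**
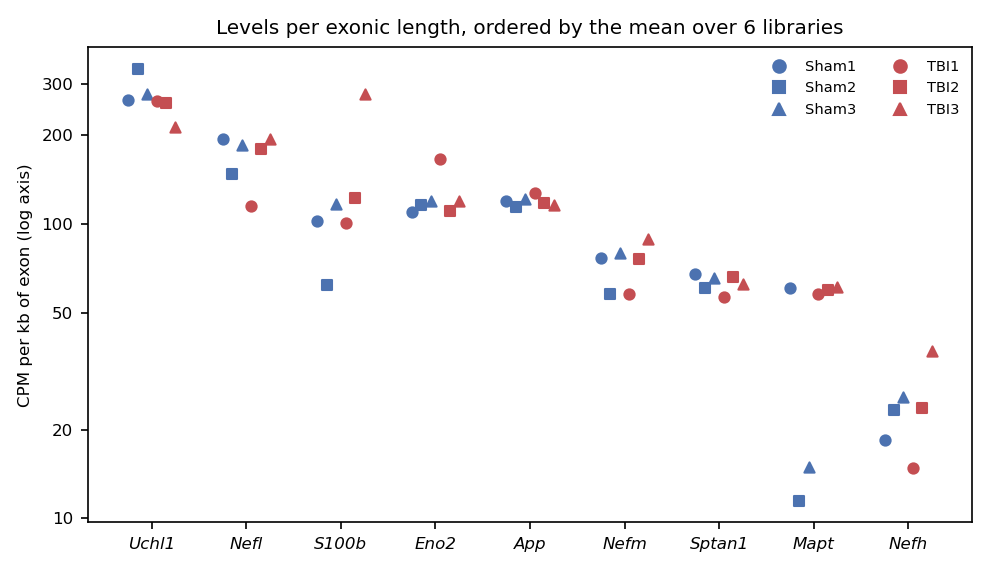
Level of each injury marker gene in CPM per kb of exonic length on a log axis, ordered from left to right by the mean over the 6 libraries, with each point a library. Uchl1 lies above all Nefl points, the ranges of S100b, Eno2 and App overlap, and Mapt splits into 4 libraries at 57.8 to 61.2 and 2 sham libraries at 11.5 and 15.0.

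Genes with the pattern most like the neurofilaments were sought among 10798 genes with a mean of at least 10 CPM, by Pearson's r over the 6 libraries to the mean standardised log2 CPM of Nefl, Nefm and Nefh. The highest were Auh (r = 0.999), Eif1ax (0.997), St8sia1 (0.994), Amd1 (0.991) and Tunar (0.988), and 233 genes had an r above 0.9. Auh, a mitochondrial enzyme of leucine breakdown, stood at 67.0, 55.6 and 70.8 CPM in sham and at 44.1, 68.9 and 86.1 CPM in TBI, so it was lowest in TBI1 and highest in TBI3. For S100b the highest were Fnta (r = 0.9995), Fez2 (0.998) and Hr (0.996), with 264 genes above 0.9, and Hr, a nuclear corepressor, reached 54.0 CPM in TBI3 against 14.6 to 27.2 CPM elsewhere. These values describe the same 6 libraries whose cell type markers differed as given above. The part of tissue composition in the correlations was not tested.

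Genes that work with the marker proteins were followed in 11 lists of 151 genes, of which 142 were tested. By edgeR's quasi-likelihood test 0 of the 142 were differentially expressed, where 0% of all genes tested were. DESeq2 with its defaults called 1, Epb41, where it called 0.164% of the 28118 genes it tested. An unadjusted p under 0.05 was reached by 9 of the 142 (6.34%), 3 higher and 6 lower in TBI, beside the 4.29% of all genes. With all 6 libraries each of the 142 genes had an adjusted p of at least 0.982 in edgeR.

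Of 20 genes of microtubule proteins 8 were higher and 12 lower (median log2 fold change -0.052, beside 0.0091 over all genes), and 3 had an unadjusted p under 0.05, all lower. Map2, which stabilises dendritic microtubules, stood at 627, 1015 and 698 CPM in sham and at 555, 549 and 433 CPM in TBI. Its log2 fold change was -0.61 (SE 0.210), and it was -0.37 without Sham2, the highest library. Tubb2a, a beta-tubulin, had 709, 959 and 669 CPM in sham and 459, 611 and 491 CPM in TBI, a log2 fold change of -0.58 (SE 0.184) that was -0.41 without Sham2. Crmp1, a collapsin response mediator, had 232, 237 and 199 CPM in sham and 136, 176 and 181 CPM in TBI, a log2 fold change of -0.44 (SE 0.149). In these 3 genes the groups did not overlap, which held for 13 of the 142 genes of all lists, beside the 10.2% of all genes. The most abundant of the list, Map1a, Tuba1a and Map1b, had log2 fold changes of 0.041, -0.12 and -0.26. Without TBI1 the list had 10 higher and 10 lower genes and a median of -0.0046, without Sham2 it had 4 higher and 16 lower and a median of -0.14, and without TBI3 the median was -0.10. Other neural intermediate filaments numbered 6, with 4 higher, 2 lower, 0 under an unadjusted p of 0.05 and a median of 0.10. That median was 0.23 without Sham2 and 0.18 without TBI1 (1 gene under that p in each), and 0.32 without both (6 of 6 higher, 2 under that p). Of all genes, 3.39% were under that p without Sham2, 4.33% without TBI1 and 5.02% without both. Ina, which assembles with the neurofilament subunits, had a log2 fold change of 0.052 (95% interval -0.46 to 0.56). Its lowest library was TBI1 (158 CPM) and its highest TBI3 (256 CPM), as for Nefl and Nefh.

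The spectrin and ankyrin skeleton, to which Sptan1 belongs, had 15 tested genes, of which 11 were higher and 4 lower in TBI (median log2 fold change 0.19). The median was 0.051 without Sham2, 0.090 without TBI1 and -0.023 without both. Of its abundant members, Sptbn1 and Ank2 had log2 fold changes of 0.0078 and -0.012. Epb41, a membrane skeleton protein that joins spectrin to actin, stood at 27.5, 19.8 and 30.9 CPM in sham and at 70.3, 41.7 and 100.3 CPM in TBI. Every TBI library was above every sham library, with TBI3 the highest. The log2 fold change was 1.44 (SE 0.336, unadjusted p 0.00408 and adjusted p 0.982 in edgeR). DESeq2 gave it an adjusted p of 0.0393, which ran from 2.89e-05 to 0.330 with 1 library left out. It was 1.45 without TBI1, 1.28 without Sham2 and 1.10 without TBI3. Sptbn5, a large beta-spectrin, was at 0.449 to 0.599 CPM in sham and 0.758 to 1.86 CPM in TBI (log2 fold change 1.33, SE 0.464).

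Enzymes that modify or cut the marker proteins formed further lists. Among 20 tau kinases and phosphatases 11 were higher and 9 lower, with a median log2 fold change of 0.014 and 0 under an unadjusted p of 0.05. Without TBI1 only 4 were higher and 16 lower, with a median of -0.13, and without Sham2 the median was -0.022. The abundant phosphatase subunits Ppp3ca, Ppp2ca and Ppp2r1a had log2 fold changes of 0.021, -0.029 and -0.14. Among 11 calpains, calpastatin and caspases 4 were higher and 7 lower, with a median of -0.020 and 0 under that p, and Capns1, Capn2 and Capn5 had -0.051, 0.13 and -0.36. That median was 0.098 without Sham2 and 0.022 without TBI1. The 18 relatives and processing enzymes of App, with 10 higher and 8 lower, had a median of 0.032 and 0 under that p. Its median was -0.026 without Sham2 and -0.012 without TBI3. In that list Aplp1, Itm2b and Aplp2 had -0.024, 0.17 and -0.11. Of 9 ubiquitin hydrolase and ubiquitin genes 8 were tested, 6 higher and 2 lower, with a median of 0.073, 0 under that p and a value of 0.0024 for Ubb, a polyubiquitin gene.

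Of 15 genes for other S100 proteins and their receptor 11 were tested, 5 higher and 6 lower, with a median of -0.095 and 0 under an unadjusted p of 0.05. S100a10, the binding partner of annexin A2, stood at 23.7, 139 and 19.9 CPM in sham and at 57.1, 34.4 and 28.6 CPM in TBI, so that Sham2 was the highest library. The direction of the list turned with the libraries kept. Without Sham2 11 of 11 were higher (median 0.49, 3 under that p), without TBI1 1 of 11 was higher (median -0.60, 0 under that p), and without both 9 of 11 were higher (median 0.44, 2 under that p). S100a1 and S100a16 had log2 fold changes of 0.27 and 0.087. Eno1, the enolase of most cell types, had -0.16, with 3 enolases tested, 2 of them higher, and a median of 0.055, or -0.023 without Sham2. Eno3 and Eno4 were at mean levels of at most 5.44 CPM in either group and had log2 fold changes of 0.45 and 0.055.

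Among 16 tested genes of axon injury and degeneration 6 were higher and 10 lower (median log2 fold change -0.32), and 3 had an unadjusted p under 0.05, all lower. The sign of this median changed with the libraries kept. Without Sham2 it was 0.12, with 11 of 17 genes higher, and without both Sham2 and TBI1 it was -0.11. Jun, the transcription factor of the axotomy response, stood at 115, 280 and 87.5 CPM in sham and at 78.7, 87.2 and 67.8 CPM in TBI. Its log2 fold change was -1.05 (SE 0.427), and it was -0.38 without Sham2. Sarm1, the NAD hydrolase that drives axon degeneration, had a mean of 27.4 ± 7.69 CPM in sham against 18.0 ± 1.81 CPM after TBI (SD, 3 mice each, log2 fold change -0.60, SE 0.233), and the value was -0.38 without Sham1. Mapk10, the neuronal JNK, had 356, 298 and 358 CPM in sham and 278, 273 and 239 CPM in TBI (log2 fold change -0.36, SE 0.125). Its value was -0.44 without Sham2 and -0.30 without TBI3. The groups did not overlap for Jun, by a margin of less than 1 CPM, and for Mapk10, and they overlapped for Sarm1. Gap43, the growth cone protein, had 0.19, and Nmnat2, the axon survival factor, had 0.11.

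Of 15 genes of other fluid markers of brain injury 14 were tested, 9 higher and 5 lower, with a median log2 fold change of 0.036 and 1 under an unadjusted p of 0.05. Without Sham2 the list had 6 higher and 8 lower genes and a median of -0.071. That gene was Ckb, the brain creatine kinase, at 1133, 851 and 1099 CPM in sham and at 1882, 1172 and 1551 CPM in TBI. The groups did not overlap, and TBI1 was the highest library. The log2 fold change was 0.58 (SE 0.204, unadjusted p 0.0266 and adjusted p 0.982 in edgeR), and it was 0.41 when TBI1 was left out. Snap25, a synaptic protein, had 0.052 (SE 0.130) and Mbp, the myelin basic protein, had 0.50 (SE 0.401), with Sham2 the lowest library at 696 CPM against 1702 to 2518 CPM elsewhere. Gfap, the astrocytic blood marker, had a log2 fold change of -0.70 (SE 0.801), with 623, 4055 and 632 CPM in sham and 1478, 1240 and 541 CPM in TBI. Its direction rested on Sham2, since Sham1 and Sham3 lay below TBI1 and TBI2 and above TBI3.

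**Figure D5:**
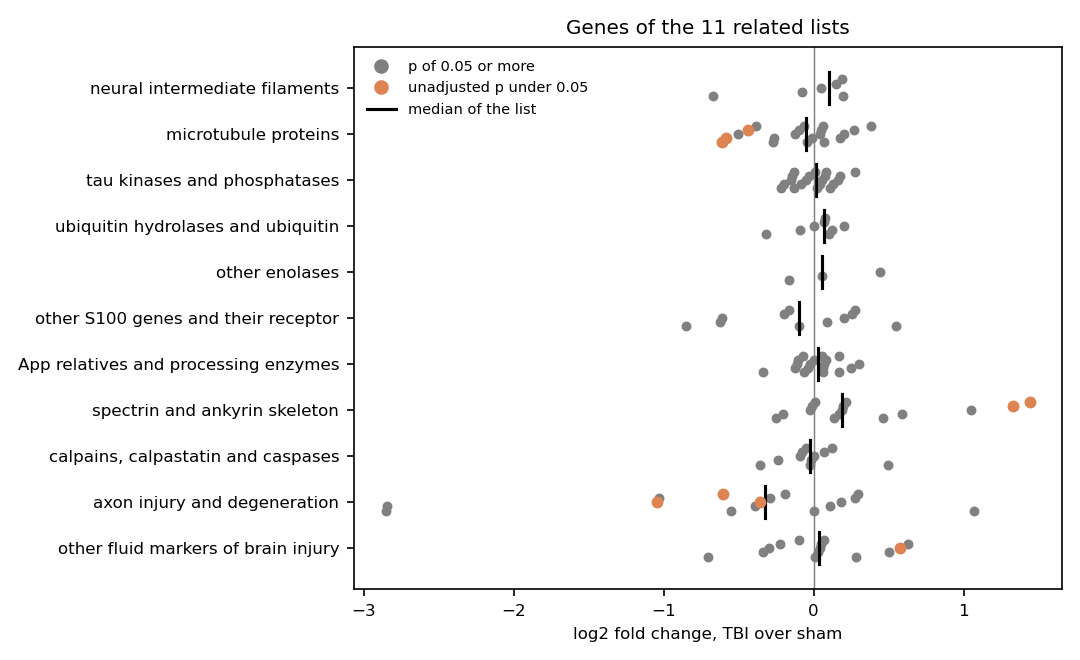
Log2 fold change, TBI over sham, of each tested gene in the 11 lists related to the injury markers, with the list median as a black line and genes under an unadjusted p of 0.05 in orange. The medians lie between -0.32 and 0.19, and the 9 orange genes (Ckb, Epb41 and Sptbn5 above 0; Map2, Tubb2a, Crmp1, Jun, Sarm1 and Mapk10 below 0) each have an adjusted p of 0.982.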

How the data were processed

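Hippocampal RNA of 6 mice was sequenced as 1 library per mouse, 3 sham and 3 TBI, grouped by the sample titles. Per the methods and the submitters' processing notes, the authors used FastQC, HISAT2 on GRCm38, StringTie and DESeq2. The deposited files hold estimated counts for each gene, whole numbers without normalization, and were used as they stood. The value 4 occurred 5109 times against 2325 times for 3, so a count was not 1 read, and no counting error was derived. The versions of FastQC, HISAT2 and StringTie, the annotation release and strandedness are not given in the sources used here. Of 52550 gene identifiers, 52403 matched GENCODE vM21, the source of symbols, coordinates and coding sequences.

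With R 4.3.3, genes were filtered (filterByExpr), TMM-scaled and fitted in edgeR 4.0.16. The quasi-likelihood p-values were adjusted by the Benjamini-Hochberg method over all genes tested, and DESeq2 1.42.0 was an alternative. Log2 CPM used a prior count of 2. The scripts were tested on simulated data. The 9 genes, the lists and the tests were chosen with earlier results of these data known. Named were the 9 genes, the list genes with an unadjusted p under 0.05, up to 3 most abundant genes per list, genes sharing exons with the 9, and those nearest in pattern. A few genes that this rule names are not reported here. Other alternatives were scalings, filters, robust dispersions, a stricter adjusted p, counts divided by 4, the replicate number as a block and each library left out. DESeq2 without each library and the fit without both Sham2 and TBI1 were added after the data were seen.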

Additional observations from a re-analysis of the deposited data

How the results depend on the processing

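Across all genes edgeR called 0 genes, DESeq2 called 46 with its defaults and 50 on the genes edgeR kept, and leaving out 1 library gave 0 to 322 (edgeR 0 to 1, and DESeq2 35, 63 and 122 without Sham1, Sham2 and Sham3 and 43, 322 and 47 without TBI1, TBI2 and TBI3). Without both Sham2 and TBI1 edgeR called 3. Of the 9 injury markers 0 to 1 were called with 1 library left out, the 1 being Mapt in DESeq2 without Sham1. Under an unadjusted p of 0.05 there were 0 in the reported fit, 1 with DESeq2 (S100b) and 0 to 1 with 1 library left out. The number of markers whose groups did not overlap was 0 with library totals and 1 to 2 with 1 library left out. Related genes under that p numbered 3 to 14 with 1 library left out and 14 without both Sham2 and TBI1. With 1 library left out, the log2 fold change of Nefl ran from -0.27 to 0.088 (edgeR from -0.26), of Nefm from -0.11 to 0.21 (edgeR from -0.10), of Nefh from -0.24 to 0.43 (edgeR from -0.23), of App from -0.033 to 0.045 and of Eno2 from -0.014 to 0.31 (edgeR from -0.0015), so these 5 genes changed sign. DESeq2 gave 0.076 for Nefl without TBI1 and, without Sham2, -0.086 for Nefm and -0.011 for App. Without both Sham2 and TBI1 App was at -0.045 and Nefh at 0.46. The cause was not tested.

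The deviations of same-numbered libraries had r of -0.0996, -0.0650 and 0.153 over genes. With 3 libraries per group, these values cannot decide whether the numbers pair the mice. With the replicate number as a block, 2 markers had an unadjusted p under 0.05 (Mapt and S100b) and 0 genes were called. Not every library correlated best with its own number. The precision rests on 3 mice per group.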

Other observations

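A highest-to-lowest ratio among the sham libraries as large as that of Mapt was found in 7 other genes with a mean level at least that of Nefh, chosen after their values were seen: Gfap, Serpina3n, Enpp2, Msn, Nwd1, Ttr and Mog. In each of the 7 it was Sham2 that stood apart, and Sham1 and Sham3 were close. Serpina3n, a serpin of reactive astrocytes, stood at 46.9, 477 and 39.3 CPM in sham and at 102, 77.1 and 24.7 CPM in TBI. Mog, a myelin protein, stood at 156, 25.1 and 132 CPM in sham and at 119, 129 and 147 CPM in TBI. For Mapt it was Sham1 that stood apart among the sham libraries, with Sham2 and Sham3 close, and Sham1 lay inside the TBI range.

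The genes most like Mapt over the 6 libraries, also chosen after their values were seen, were Krr1 (Pearson's r = 0.984), Gm14205 (0.980) and Fam214a (0.975). Krr1, a ribosome assembly factor, stood at 53.6 CPM in Sham1, at 26.7 CPM in Sham3 with Sham2 just under it, and at 47.1, 51.8 and 46.4 CPM in TBI. An r above 0.9 was reached by 59 genes.

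Markers of microglia and macrophages, 8 genes in all, had log2 fold changes above 0 in 8 of 8, with a median of 0.35 and 0 under an unadjusted p of 0.05 by edgeR's quasi-likelihood test. Their summed level was 761 CPM in TBI1, against 381 to 498 CPM in the other 5 libraries. Without TBI1 the median was 0.013, with 5 of 8 higher. Without TBI3 it was 0.59, with 8 of 8 higher and 2 under that p, and without Sham2 it was 0.30, with 1 under that p. Of all genes, 4.29% were under it with all 6 libraries, 2.88% without TBI3 and 3.39% without Sham2.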
